A study of Mus musculus with 10 samples.

Results

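Sialyltransferases are the Golgi enzymes that place sialic acid on the ends of glycan chains. The results below follow 10 of their genes in mast cells sorted from the mouse lower airway: St3gal1, St3gal2, St3gal3, St3gal4, St3gal5, St3gal6, St6gal1, St8sia1, St8sia4 and St8sia6. These genes were chosen by symbol, with earlier results of these data known. All 10 have a row among the 22815 gene symbols of the deposited count table. Of these, 8 passed the filter on low counts and were tested, and St3gal6 and St8sia1 are given as counts alone.

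The mast cells came from wild-type C57BL/6 mice of 5 to 7 weeks and were sorted as a B7hi and a B7low population, which the series title calls inducible and constitutive mast cells. B7 stands for integrin β7, which inducible mast cells carry at a high and constitutive ones at a low level. Mice received 3 µg of house dust mite extract (HDM) in 20 µL, or 20 µL of saline alone, into the nose 2 times a week for 3 weeks. The 10 libraries form 4 groups: B7hi HDM (n = 3), B7hi saline (n = 2), B7low HDM (n = 3) and B7low saline (n = 2). No group carries a transgene or deletion. Since the labels leave it unsaid whether each library is a mouse of its own or a pool, the p-values reflect the spread among these libraries, part of which may be technical.

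Each sialyltransferase takes sialic acid from the activated donor CMP-sialic acid and joins it to one kind of acceptor. The ST3Gal enzymes attach it to the third carbon of a galactose, ST6Gal1 attaches it to the sixth carbon of a galactose, and the ST8Sia enzymes attach it to another sialic acid. St3gal5 encodes GM3 synthase, which turns lactosylceramide into GM3, the precursor of most gangliosides. St8sia6 encodes an enzyme that adds a further sialic acid mainly to O-glycans, and in the mouse its products are ligands of the inhibitory receptor Siglec-E.

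St3gal5 and St8sia4 are the members that, with St8sia6, passed the test between B7hi and B7low cells with saline, so the DNA just before their start sites is shown. The sequences are RefSeq's for GRCm38.p6, 5′ to 3′ on the gene's strand, and capitals mark the GC box GGGCGG or its reverse complement CCGCCC. St3gal5 lies at chr6:72097592-72154571 on the plus strand in GENCODE M21 on GRCm38, and its window of 234 bases, chr6:72097358-72097591, ends where its first annotated exon begins. St8sia4 lies at chr1:95587682-95667571 on the minus strand, and its window of 250 bases is chr1:95667595-95667844.
St3gal5: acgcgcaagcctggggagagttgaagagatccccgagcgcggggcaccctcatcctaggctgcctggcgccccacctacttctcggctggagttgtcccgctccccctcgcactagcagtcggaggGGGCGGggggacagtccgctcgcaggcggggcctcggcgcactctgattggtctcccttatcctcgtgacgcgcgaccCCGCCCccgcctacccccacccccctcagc
St8sia4: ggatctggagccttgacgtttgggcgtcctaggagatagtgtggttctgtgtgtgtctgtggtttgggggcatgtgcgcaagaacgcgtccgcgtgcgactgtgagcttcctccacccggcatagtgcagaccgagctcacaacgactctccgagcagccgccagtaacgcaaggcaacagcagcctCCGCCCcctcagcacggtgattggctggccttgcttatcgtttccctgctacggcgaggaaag
A sequence of 250 bases before the RefSeq start was found for 8 of the 10 members, and 5 motifs were searched on both strands: the GATA motif AGATAA, the E-box CACGTG, the AP-1 motif TGANTCA, the GC box GGGCGG and the TATA box TATAAA. Over these 250 bases, St3gal5 had 2 GC boxes and St8sia4 had 1, and neither window had any of the other 4 motifs. A GC box occurred in 32.7% of the 32851 mouse promoter windows of this length, so its presence was common. Both windows were rich in the dinucleotide CG, with 25 copies before St3gal5 and 19 before St8sia4, against a median of 6 (quartiles 2 and 16) over all windows. The RefSeq window of St8sia6 (chr2:13793521-13793770, minus strand) lies inside the first exon that GENCODE gives for the gene at chr2:13651021-13794064. It had 30 CG dinucleotides and none of the 5 motifs. The windows of the members called in opposite directions were thus all richer in CG than most, but this was not particular to them. The windows of the other members had 25 (St3gal4), 18 (St3gal3), 14 (St8sia1), 16 and 1 (St3gal6), and 6, 10 and 5 (St6gal1) CG dinucleotides.

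St3gal5 was far lower in B7hi than in B7low cells with each challenge. The B7hi HDM libraries held 6.25, 7.83 and 0.685 CPM (a gene's share of its library's counts, scaled by TMM) and the B7hi saline libraries 0 and 1.57 CPM. The B7low HDM libraries held 167, 116 and 90.4 CPM and the B7low saline libraries 236 and 156 CPM. Every B7hi library was far below every B7low library. Behind these levels stood 15 and 3 counts in the B7hi HDM and B7hi saline groups, against 445 and 228 counts in B7low HDM and B7low saline. In bulk libraries, fewer cells that express a gene and less RNA per cell cannot be told apart.

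With saline, St3gal5 was lower in B7hi than in B7low cells by a log2 fold change of -7.59 ± 0.76 (SE; edgeR quasi-likelihood test, Benjamini-Hochberg adjusted p = 4.1e-05), rank 12 of the 10533 tested genes by p. Since the B7hi saline group had 3 counts, the ratio was also taken from counts: 210-fold lower, with a 95% counting interval of 71.1 to 1028. Such intervals, here and below, cover counting error only and not the spread between libraries. With HDM the log2 fold change was -4.81 ± 0.54 (adjusted p = 1.35e-04), and the ratio of counts was 27.5-fold lower (95% counting interval 16.5 to 49.5). Averaged over both challenges it was -6.20 ± 0.47 (adjusted p = 7.7e-07). These calls held under each alternative tried, with a highest adjusted p of 0.00411 with saline and 0.00159 with HDM.

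The summed level of a list of mast cell markers was also lower in B7hi than in B7low cells. All 12 mast cell markers checked were detected in each library, and their summed level was 19640 to 32030 CPM in B7hi HDM and 14350 to 17430 CPM in B7hi with saline, against 55950 to 79860 CPM in B7low HDM and 63060 to 110100 CPM in B7low saline. Cma1 led the list, with a mean of 13120 CPM. Averaged over challenges, 8 of the 12 were called lower in B7hi cells and none higher, where 6.08% of all tested genes were called lower. With saline 7 of the 12 were called lower (3.64% of all tested genes), and with HDM 5 of the 12 (2.15%). The part that the difference in these markers has in the St3gal5 result was not tested. B cell markers summed to 3.75 to 21.9 CPM in B7hi HDM, 9.83 and 66.8 CPM in B7hi saline, 77.1 to 591 CPM in B7low HDM and 19.2 and 33.4 CPM in B7low saline. In the B7low HDM libraries the B cell sums were 591, 387 and 77.1 CPM, beside St3gal5 at 167, 116 and 90.4 CPM. In the B7low saline libraries the B cell sums were 19.2 and 33.4 CPM, beside St3gal5 at 236 and 156 CPM. The part of B cell transcripts in the St3gal5 values was not tested.

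**Figure D1:**
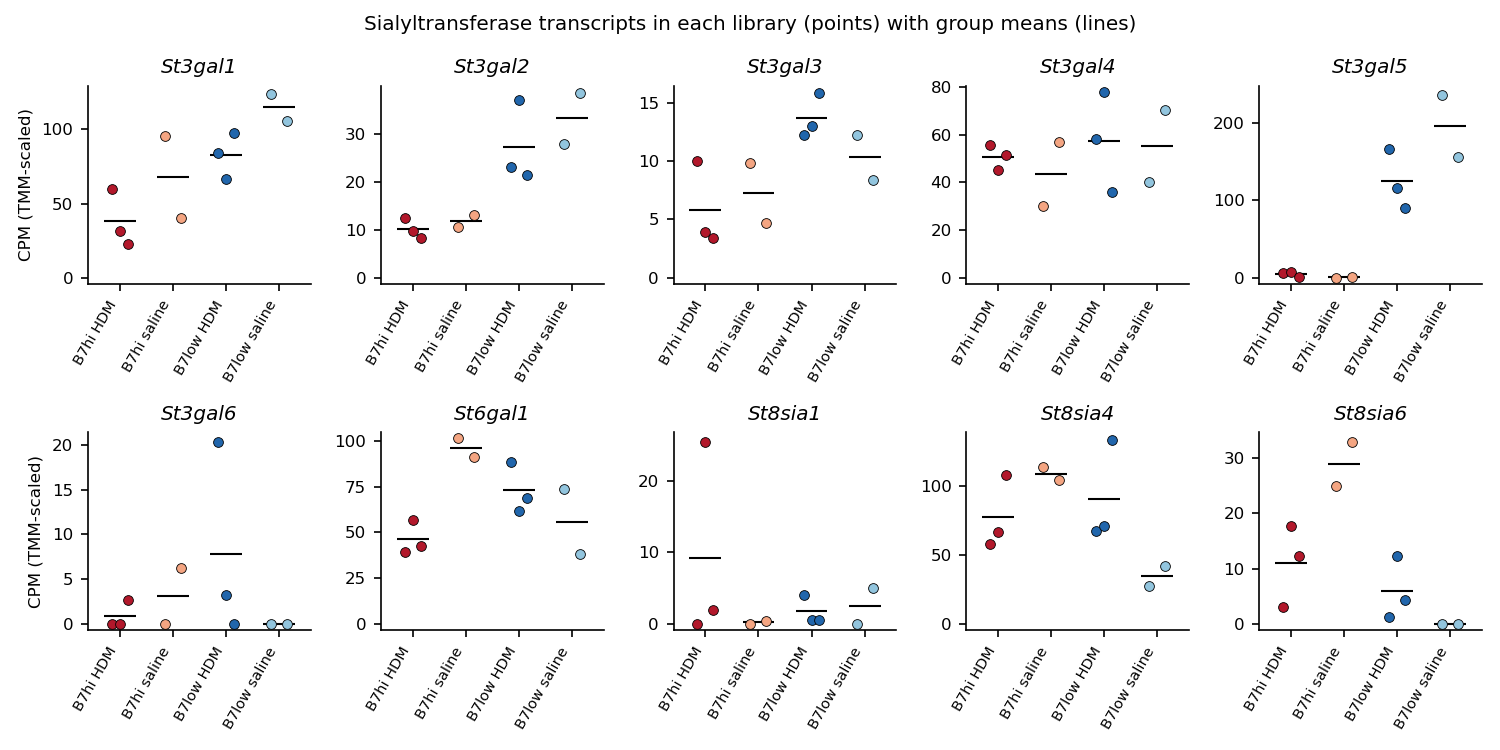
Level of each of the 10 sialyltransferases in CPM (vertical axis, a scale for each gene) in the B7hi HDM, B7hi saline, B7low HDM and B7low saline groups (horizontal axis). Points are libraries and lines are group means. St3gal5 lies between 0 and 7.83 CPM in the B7hi libraries and between 90.4 and 236 CPM in the B7low libraries, and St8sia6 is 0 in both B7low saline libraries.

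St8sia6 had the opposite order with saline. The B7hi HDM libraries held 3.13, 17.6 and 12.3 CPM, the B7hi saline libraries 24.9 and 32.9 CPM, the B7low HDM libraries 1.36, 12.4 and 4.42 CPM, and both B7low saline libraries had 0 counts. With saline the populations did not overlap, whereas with HDM the B7hi and B7low libraries overlapped. The counts were 96 in B7hi saline and 0 in B7low saline, and the test called St8sia6 higher in B7hi cells (adjusted p = 0.0157). Against a floor of 3 counts over the B7low saline group the level was 11.6-fold higher. That ratio is no lower bound, since the 95% counting interval starts at 9.22-fold. The counts with HDM were 32 in B7hi and 27 in B7low, a log2 fold change of 0.66 ± 0.76 that did not pass the test (adjusted p = 0.783).

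Averaged over both challenges St8sia6 also passed as higher in B7hi cells (adjusted p = 0.0117). Summed over all libraries it had 128 counts in B7hi against 27 in B7low, a ratio of 3.50-fold (95% counting interval 2.30 to 5.52). That interval leaves out the spread between libraries. With saline the counts were 96 against 0, and with HDM the ratio was 1.28-fold (95% counting interval 0.743 to 2.22). The saline call was lost with limma-voom with library quality weights (adjusted p = 0.152), without B7hi saline 2 (0.0633), without B7low saline 1 (0.066), without B7low saline 2 (0.0663) and without the pair B7low saline 2 and B7hi HDM 2 (0.0724). Leaving out a saline library also loosens the count filter, and with the tested genes held to those of all 10 libraries the call was lost without any one of the 4 saline libraries (0.0575 to 0.0717). Depth also differed with saline, at 1222409 and 1725818 counts in all in the B7hi libraries, against 652736 and 639906 counts in the B7low libraries, which had 0 counts of St8sia6. The share of the ribosomal RNA precursor Rn45s was 19.7% and 21.6% in B7hi saline and 27.2% and 28.9% in B7low saline. The part of either in the St8sia6 and St8sia4 results was not tested. The averaged call was lost with weighted limma-voom (0.102) and without that pair (0.0622). T cell markers summed to 8.1, 37.2 and 138 CPM in B7hi HDM and 4.53 and 179 CPM in B7hi saline. They summed to 19.0, 18.9 and 3.79 CPM in B7low HDM and 10.5 and 30.1 CPM in B7low saline. The part of T cell transcripts in the St8sia6 values was not tested.

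St3gal5 was next set against St8sia6 within each library. St3gal5 had more counts than St8sia6 in all 5 B7low libraries and in 1 of the 5 B7hi libraries, B7hi HDM 1 (10 against 5 counts). The log2 CPM of St3gal5 minus that of St8sia6, with a prior count of 2 that edgeR scales to each library's depth, was 0.72, -1.02 and -2.56 in the B7hi HDM libraries, -3.98 and -3.41 in the B7hi saline libraries, 5.79, 3.07 and 3.91 in the B7low HDM libraries, and 7.14 and 6.54 in the B7low saline libraries. All 5 B7low values were above all 5 B7hi values. Where a gene had 0 counts, St8sia6 in both B7low saline libraries and St3gal5 in B7hi saline 1, the value depends on the prior count and the depth. Group means were -0.95 ± 1.64 in B7hi HDM (SD, n = 3), -3.69 ± 0.40 in B7hi saline (SD, n = 2), 4.26 ± 1.39 in B7low HDM (SD, n = 3) and 6.84 ± 0.42 in B7low saline (SD, n = 2).

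B7hi minus B7low, this balance differed by -10.53 with saline and by -5.21 with HDM, a mean of -7.87 on the log2 scale (exact permutation test within challenges, two-sided, p = 0.0167, the smallest that its 120 arrangements allow). Because of the groups at 0 counts the size of this difference depends on the prior count, with -9.86 at a prior count of 0.5 and -6.36 at 5. St3gal5 alone separated all B7hi from all B7low libraries, so the permutation p cannot tell whether St8sia6 had a part. With HDM the fitted log2 fold change was -4.81 for St3gal5 and 0.66 for St8sia6, and St8sia6 was not called. Between challenges, the B7hi libraries leaned less towards St8sia6 with HDM and the B7low libraries leaned less towards St3gal5 with HDM, and these shifts were not tested as a pair. Set per exon length, St3gal5 was above St8sia6 in B7low cells. It reached 50.4 ± 15.7 CPM per kb with HDM and 79.3 ± 23.1 with saline, against 0.794 ± 0.745 and 0 CPM per kb for St8sia6. In B7hi cells St3gal5 was at 1.99 ± 1.52 CPM per kb with HDM and 0.317 ± 0.448 with saline, against 1.45 ± 0.962 and 3.8 ± 0.738 CPM per kb for St8sia6 (SD, n = 3 and 2). In B7hi HDM cells the per-length levels of both genes thus lay within each other's spread.

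**Figure D2:**
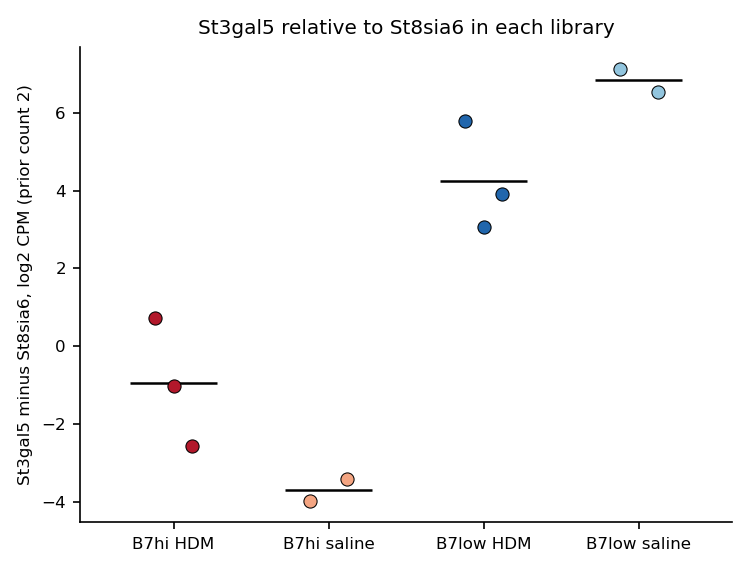
Difference between the log2 CPM of St3gal5 and of St8sia6 in each library (vertical axis, prior count 2) by group (horizontal axis). Points are libraries and lines are group means. The 5 B7hi points lie between -3.98 and 0.72 and the 5 B7low points above them, between 3.07 and 7.14.

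St8sia4, one of the enzymes that build polysialic acid, was called higher in B7hi than in B7low cells with saline, though not in each alternative. The B7hi HDM libraries held 58.1, 66.5 and 108 CPM, the B7hi saline libraries 113 and 104 CPM, the B7low HDM libraries 67.8, 70.9 and 133 CPM, and the B7low saline libraries 28 and 41.8 CPM. The saline groups did not overlap and the HDM groups did. The log2 fold change, B7hi over B7low, was 1.64 ± 0.43 with saline (adjusted p = 0.0312) and -0.23 ± 0.32 with HDM (adjusted p = 0.827). The saline call was lost without any one of the 4 saline libraries (adjusted p 0.0561 to 0.139), with weighted limma-voom (0.0751), with the saline groups alone in the fit (0.056) and without the pair B7low saline 2 and B7hi HDM 2 (0.0748).

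The sum of a list of epithelial markers, most of it Cdh1, was, like St8sia4, higher in B7hi than in B7low libraries with saline. With HDM the populations overlapped. Over all libraries Cdh1 had 1070 counts, and no other marker of the list had more than 71. Which cells the Cdh1 reads came from was not tested. Of 6 such markers, Cdh1 made up most of the sum, which was 73.8, 131 and 138 CPM in B7hi HDM, 187 and 137 CPM in B7hi saline, 92.2, 57.9 and 129 CPM in B7low HDM, and 10.5 and 26.8 CPM in B7low saline. In B7hi saline, 4 and 2 of the 6 were at 0 counts, against 5 and 4 of the 6 in B7low saline. The part of these transcripts in the St8sia4 and St8sia6 results was not tested.

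With saline, 3 of the 8 tested members were called, St3gal5 as lower and St8sia4 and St8sia6 as higher in B7hi cells, where 6.54% of all 10533 tested genes were called (2.91% higher and 3.64% lower). With HDM, St3gal5 was the 1 member called, as lower, where 2.84% of all tested genes were called (0.693% higher and 2.15% lower). Averaged over both challenges 3 of 8 were called, St3gal5 and St3gal2 as lower and St8sia6 as higher, where 11.9% of all tested genes were called (5.8% higher and 6.08% lower). CPM ranges of the populations did not overlap for 6 of the 8 with saline and 5 of the 8 with HDM, against 51.9% and 20.5% of all tested genes. The median log2 fold change over the 8 tested members was -0.42 with saline, -0.88 with HDM and -0.55 on average, against 0.03 over all tested genes in each case. St8sia6 is the highest of the 8 in each of these lists, so its fitted value against 0 counts does not move the medians. The members and the other gene lists were chosen with earlier results of these data known. Such shares and medians therefore do not test them as sets. Scaling by library size alone moved the median of all genes with saline to 0.30 and the share of higher calls among all calls to 67.9%, against 44.4% with TMM.

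St3gal2, which sialylates O-glycans and the end galactose of gangliosides, was lower in B7hi cells on average over the challenges. The B7hi HDM libraries held 12.5, 9.79 and 8.22 CPM and the B7hi saline libraries 10.6 and 13.1 CPM, against 23.0, 37.1 and 21.5 CPM in B7low HDM and 28 and 38.5 CPM in B7low saline. All 5 B7hi libraries were below all 5 B7low libraries, a separation that, in either direction, 9.4% of tested genes had. The log2 fold change was -1.44 ± 0.35 on average (adjusted p = 0.0118), and neither challenge alone passed the test (-1.48 with saline, adjusted p = 0.111, and -1.41 with HDM, adjusted p = 0.112). Without B7hi saline 1 the average no longer passed (adjusted p = 0.073).

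St3gal1, which caps the core 1 O-glycan, missed the threshold narrowly. The B7hi HDM libraries held 60, 31.3 and 22.6 CPM and the B7hi saline libraries 95.2 and 40.2 CPM, against 84.0, 66.3 and 97.3 CPM in B7low HDM and 124 and 105 CPM in B7low saline. Within each challenge the populations did not overlap, but B7hi saline 1 reached into the range of B7low HDM. The average log2 fold change was -0.93 ± 0.30 (adjusted p = 0.0524), and it passed the threshold in some alternatives, DESeq2 among them.

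Of the other tested members, St3gal3 and St3gal4, which sialylate N-glycans, and St6gal1 did not pass in any comparison. St3gal3 held 10, 3.91 and 3.42 CPM in B7hi HDM, 9.82 and 4.70 CPM in B7hi saline, 12.2, 13.0 and 15.8 CPM in B7low HDM, and 12.2 and 8.36 CPM in B7low saline. Its populations overlapped with saline but not with HDM, and its average log2 fold change was -0.84 ± 0.52 (adjusted p = 0.339). St3gal4 held 55.6, 45 and 51.4 CPM in B7hi HDM, 30.2 and 56.9 CPM in B7hi saline, 58.3, 78.1 and 36.0 CPM in B7low HDM, and 40.2 and 70.2 CPM in B7low saline. Its populations overlapped with each challenge, with an average log2 fold change of -0.25 ± 0.28 (adjusted p = 0.631).

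St6gal1, the enzyme that makes the sialic acid ligand of CD22 on N-glycans, had a different order with each challenge. The B7hi HDM libraries held 39.4, 56.8 and 42.5 CPM, the B7hi saline libraries 101 and 90.8 CPM, the B7low HDM libraries 88.1, 61.8 and 68.9 CPM, and the B7low saline libraries 73.4 and 38.5 CPM. B7hi libraries were below B7low libraries with HDM and above them with saline, with no overlap in either case. Such a lack of overlap, in either direction, was found for 20.5% of tested genes with HDM and 51.9% with saline. The log2 fold changes were -0.68 ± 0.30 with HDM (adjusted p = 0.326) and 0.78 ± 0.37 with saline (adjusted p = 0.234). B cells express much St6gal1, and their markers summed to 591, 387 and 77.1 CPM in the B7low HDM libraries, against 3.75 to 21.9 CPM in B7hi HDM. With saline these markers summed to 9.83 and 66.8 CPM in the B7hi and 19.2 and 33.4 CPM in the B7low libraries. Of the 5 tested B cell markers, 3 were called lower in B7hi cells with HDM, where 2.15% of all tested genes were called lower. The part of B cell transcripts in the St6gal1 values was not tested.

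**Figure D3:**
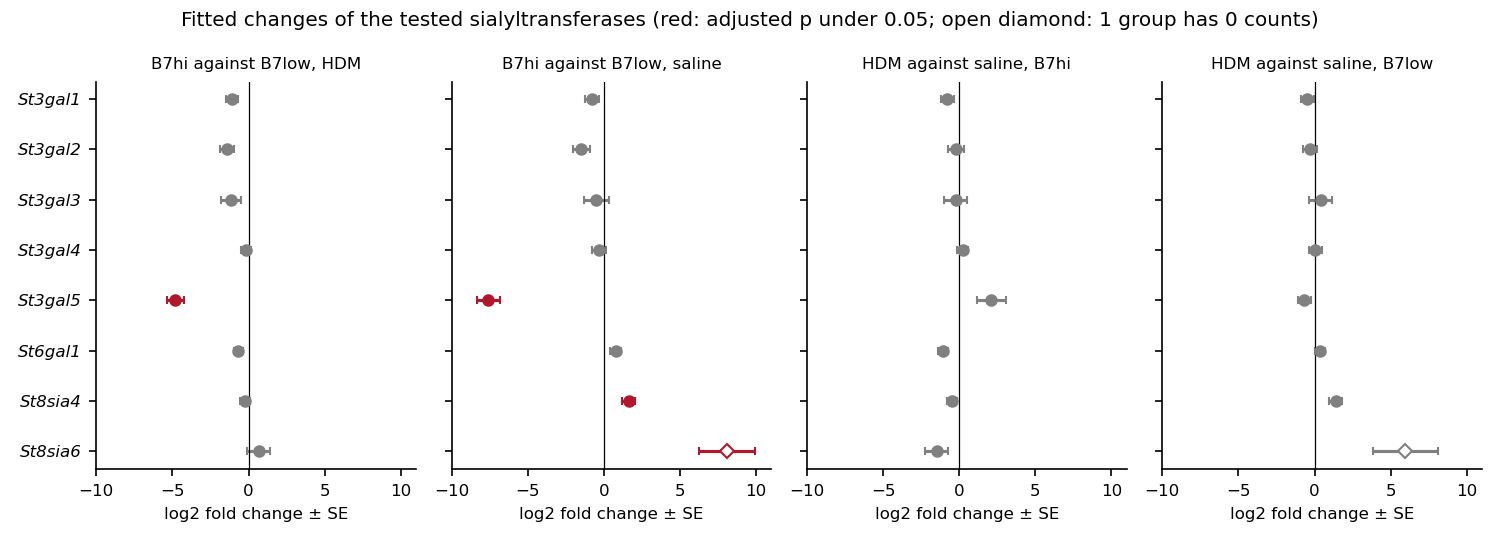
Fitted log2 fold changes with SE (horizontal axis) of the 8 tested sialyltransferases (vertical axis) for B7hi against B7low with HDM and with saline and for HDM against saline in B7hi and in B7low cells. Red marks an adjusted p under 0.05 and an open diamond a comparison in which 1 group has 0 counts, whose fitted value is no bound. St3gal5 is at -4.81 with HDM and -7.59 with saline, and no member is red for HDM against saline.

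St3gal6 and St8sia1 were too low to test. St3gal6, which like St3gal4 caps lactosamine chains, had counts of 0, 0 and 4 in B7hi HDM, 0 and 12 in B7hi saline, 15, 5 and 0 in B7low HDM, and 0 and 0 in B7low saline. Its exons overlap those of Dcbld2 on the opposite strand over 1603 nt, and without a stated use of strand the reads of these genes cannot be told apart. St8sia1, the GD3 synthase that adds a further sialic acid to GM3, had 25 counts in all, of which 13 came from B7hi HDM 2. That library had the lowest total count (525983) and the highest Kcnq1ot1 level (12130 CPM). In B7low cells, where the GM3 synthase transcript was high, St8sia1 had 5 counts with HDM and 3 counts with saline.

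The composition of the family differed between the populations when levels were set per exon length. In B7low cells St3gal5 had the highest level, at 50.4 ± 15.7 CPM per kb with HDM and 79.3 ± 23.1 with saline, and St3gal4 came next at 27.4 ± 10 and 26.4 ± 10.1 CPM per kb. In B7hi cells St3gal4 led with 24.2 ± 2.55 CPM per kb with HDM and 20.8 ± 9 with saline, followed by St6gal1 at 9.56 ± 1.92 and 19.9 ± 1.53 CPM per kb. With saline these last 2 genes lay within each other's spread. St3gal1 was at 6.55 ± 3.38 and 11.7 ± 6.71 CPM per kb in B7hi HDM and B7hi saline, and at 14.2 ± 2.68 and 19.8 ± 2.29 CPM per kb in B7low HDM and B7low saline. In B7low HDM its level and the 15.1 ± 2.82 CPM per kb of St6gal1 did not differ beyond their spread.

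The 10 members together held 245, 264 and 253 CPM in B7hi HDM, 385 and 351 CPM in B7hi saline, 526, 460 and 468 CPM in B7low HDM, and 542 and 463 CPM in B7low saline. The B7hi sums were below the B7low sums with each challenge, and within B7hi cells the HDM sums were below the saline sums. The order with saline rests on St3gal5: without it the sums were 385 and 349.8 CPM in B7hi saline, above 306 and 308 CPM in B7low saline. With HDM they were 239, 256 and 253 CPM in B7hi, below 359, 343 and 378 CPM in B7low. These sums carry no test.

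**Figure D4:**
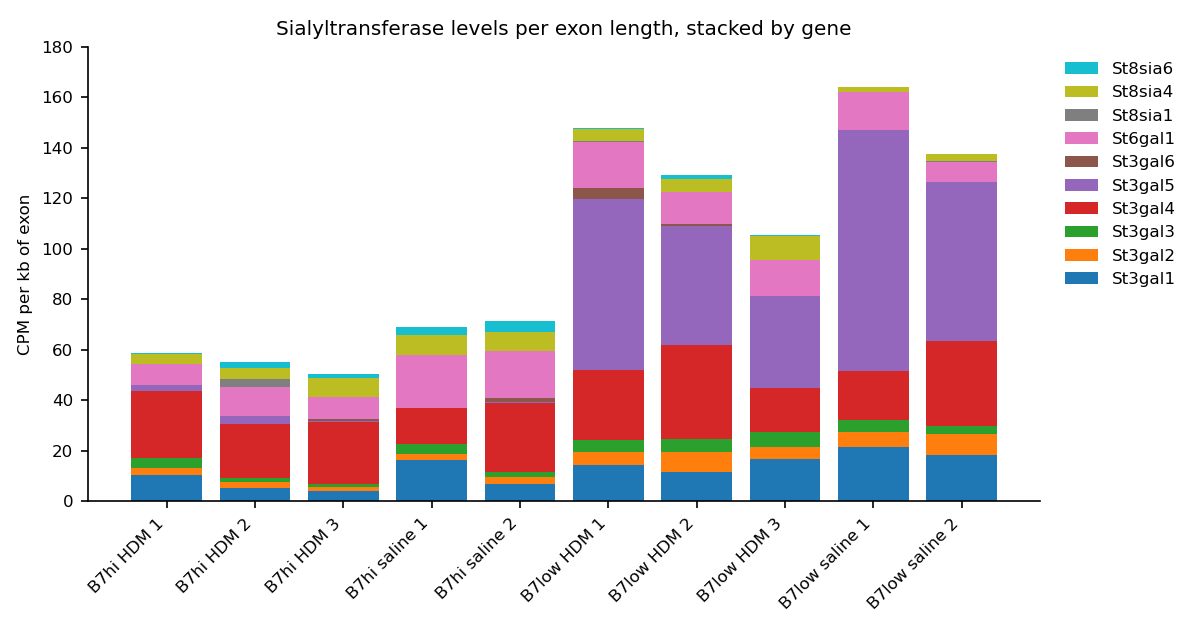
Levels of the 10 sialyltransferases in CPM per kb of exon (vertical axis), stacked by gene, in each library (horizontal axis). Each colour is a gene. St3gal5 forms the largest segment in all 5 B7low bars and a small one or none in the B7hi bars, where St3gal4 forms the largest segment except in B7hi saline 1.

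HDM challenge moved no tested member past the threshold in either population. In B7hi cells 0 of 8 were called, where 0.00949% of tested genes (1 gene) were called by edgeR, 54 by DESeq2 and 11 by weighted limma-voom, and 4.13% had an unadjusted p under 0.05. In B7low cells 0 of 8 were called, where again 0.00949% (1 gene) were called by edgeR, 19 by DESeq2 and 0 by weighted limma-voom, and 9.08% had an unadjusted p under 0.05. The largest difference in B7hi cells relative to its error was that of St6gal1, at 39.4 to 56.8 CPM with HDM and 90.8 to 101 CPM with saline, a log2 fold change of -1.08 ± 0.32 (edgeR adjusted p = 0.567). In B7low cells it was that of St8sia4, at 67.8 to 133 CPM with HDM and 28 and 41.8 CPM with saline, a log2 fold change of 1.38 ± 0.41 (edgeR adjusted p = 0.318). Neither pair of groups overlapped, as was so for 20.6% of tested genes in B7hi and 23.9% in B7low cells.

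St8sia6 was lower with HDM than with saline in B7hi cells, with 3.13 to 17.6 CPM against 24.9 and 32.9 CPM, and higher with HDM in B7low cells, with 1.36 to 12.4 CPM against 0 in both libraries. The B7hi log2 fold change was -1.49 ± 0.77 (adjusted p = 0.999), and the B7low difference did not pass either (adjusted p = 0.433). Against 3 counts over the saline group the B7low level was 2.73-fold higher with HDM, and the 95% counting interval starts at 2.07-fold. St3gal5 was at 0.685 to 7.83 CPM in B7hi HDM and 0 and 1.57 CPM in B7hi saline (adjusted p = 0.999). In B7low cells it was at 90.4 to 167 CPM with HDM and 156 and 236 CPM with saline, a log2 fold change of -0.66 ± 0.43 (adjusted p = 0.666).

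An interaction term, the HDM effect of B7hi cells less that of B7low cells, was called for 0 of 8 members and for 0% of tested genes by edgeR, with 8.55% at an unadjusted p under 0.05, 41 genes called by DESeq2 and 0 by weighted limma-voom. Its values were -1.86 ± 0.54 for St8sia4 (adjusted p = 0.345), -1.46 ± 0.47 for St6gal1 (adjusted p = 0.421) and 2.78 ± 1.06 for St3gal5 (adjusted p = 0.5). For St8sia6 the adjusted p was 0.389, with a fitted value that rests on a group at 0 counts.

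Of 6 tested genes of ganglioside synthesis before and after GM3, 2 were called higher and 1 lower in B7hi cells on average over the challenges, where 5.8% of all tested genes were called higher and 6.08% lower. A4galt makes the globoside Gb3 from lactosylceramide, the substrate that St3gal5 also uses. It held 1.25, 11.7 and 0 CPM in B7hi HDM and 0 and 1.04 CPM in B7hi with saline, against 39.3, 36.4 and 37.3 CPM in B7low HDM and 59.4 and 38.5 CPM in B7low saline. The populations did not overlap, as for St3gal5, and A4galt was called lower with saline (log2 fold change -6.11, adjusted p = 0.00426), with HDM (-3.76, adjusted p = 0.0218) and on average (-4.93, adjusted p = 2.5e-04). With the tested genes held, A4galt no longer passed with saline once B7hi saline 1 was omitted (0.061). The HDM call was lost without any one of 5 HDM libraries, that is, each but B7hi HDM 2 (adjusted p 0.0562 to 0.099).

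B3gnt5, which leads lactosylceramide into the lacto series, was higher in B7hi cells, with 33.1, 54.8 and 48.6 CPM in B7hi HDM and 81.6 and 42.3 CPM in B7hi with saline, against 25.8, 28 and 19.0 CPM in B7low HDM and 12.2 and 8.36 CPM in B7low saline. Its log2 fold change was 2.57 ± 0.53 with saline (adjusted p = 0.00717, but 0.113 without B7hi saline 1, 0.051 without B7low saline 2 with the tested genes held, and 0.132 with weighted limma-voom) and 1.73 ± 0.32 on average (adjusted p = 0.00199). B4galnt1, which turns GM3 into GM2, averaged 67.1 CPM in B7hi HDM, 111 CPM in B7hi saline, 65.9 CPM in B7low HDM and 30.5 CPM in B7low saline. It was called higher in B7hi cells with saline (1.85 ± 0.47, adjusted p = 0.0264) and on average (0.95 ± 0.29, adjusted p = 0.0441), and the saline call was lost without B7hi saline 1, B7hi saline 2 or B7low saline 1 (0.0865 to 0.133). The average call was lost without any one of 7 libraries, that is, each but B7low saline 2, B7hi HDM 2 and B7low HDM 3 (0.0569 to 0.155). Ugcg, which makes the glucosylceramide from which these lipids start, did not pass (average 0.07 ± 0.25, adjusted p = 0.900).

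Of 6 tested genes of ganglioside breakdown, 2 were lower and 1 was higher in B7hi cells on average, where 11.9% of all tested genes were called in either direction. Psap, the precursor of the saposins that present lipids to lysosomal enzymes, was at 70.0, 52.8 and 57.5 CPM in B7hi HDM and 48.4 and 59.5 CPM in the B7hi saline pair, against 202, 136 and 150.4 CPM in B7low HDM and 213 and 164 CPM in B7low saline. Its log2 fold change was -1.61 ± 0.20 on average (adjusted p = 5.6e-05), with no overlap. It was also called with HDM (-1.41, adjusted p = 0.00523) and with saline (-1.80, adjusted p = 0.00234, but 0.0598 without B7hi saline 1, or 0.0448 with the tested genes held). Hexa, whose product takes part in the breakdown of GM2, was lower at a log2 fold change of -0.91 ± 0.20 (adjusted p = 0.00641). Gm2a, the activator that presents GM2 for breakdown, was the 1 that was higher, at 0.62 ± 0.18 (adjusted p = 0.0300). The call of Hexa was lost without B7hi saline 1 (0.0515, or 0.0393 and kept with the tested genes held), and that of Gm2a without any one of 6 libraries, that is, B7hi saline 1, B7low saline 2, B7hi HDM 3 and each B7low HDM library (0.0516 to 0.182).

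Of 10 other sialyltransferase genes, 3 passed the count filter. St6galnac3, which adds sialic acid to N-acetylgalactosamine on gangliosides and O-glycans, held 20.6, 7.83 and 10.3 CPM in B7hi HDM and 15.1 and 5.74 CPM in B7hi with saline, against 102, 74.1 and 68.9 CPM in B7low HDM and 96.2 and 63.5 CPM in B7low saline. It was lower in B7hi cells with saline (-2.97 ± 0.52, adjusted p = 0.00239), with HDM (-2.55 ± 0.42, adjusted p = 0.00222) and on average (-2.76 ± 0.33, adjusted p = 3.9e-05). St6galnac4 and St6galnac5 did not pass, and St8sia2, the other polysialyltransferase, had 15 counts over all libraries.

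Of 11 tested genes of sialic acid synthesis and transport, 2 were called on average, against 11.9% of all tested genes. Npl, the lyase that breaks free sialic acid down, was higher in B7hi cells (1.00 ± 0.23 on average, adjusted p = 0.0100) and Siae, which removes acetyl groups from sialic acid, was lower (-1.22 ± 0.36, adjusted p = 0.0379). The call of Npl was lost without B7hi saline 1 or B7low saline 1 (0.069 and 0.051, or 0.0741 and 0.0488 with the tested genes held), and that of Siae without any one of 6 libraries, each but B7low saline 2, B7hi HDM 1, B7hi HDM 2 and B7low HDM 2 (0.0764 to 0.134). None of the 3 tested genes of the sialidase list passed on average, and the smallest p was that of Ctsa, the protein that protects lysosomal sialidase (0.44 ± 0.20, adjusted p = 0.160). Of 21 tested genes that build O-glycan and N-glycan acceptors, 3 were higher in B7hi cells on average, against 5.8% of all tested genes: Fut8, which adds core fucose (1.36 ± 0.33, adjusted p = 0.0182), and Galnt2 and Galnt6, which start O-glycans (0.95, adjusted p = 0.0459, and 0.74, adjusted p = 0.0322). Fut8 was lost without B7hi saline 1 (0.064), Galnt2 without any one library but B7low HDM 3 (0.0536 to 0.165), and Galnt6 without any one library but B7low saline 2, B7hi HDM 1 and B7low HDM 3 (0.0528 to 0.136).

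Among carriers of polysialic acid, Ncam1 and Cadm1 were called lower in B7hi cells on average, 2 of 4 tested, against 6.08% of all tested genes. Ncam1 held 2.50, 11.7 and 2.05 CPM in B7hi HDM and 4.53 and 2.61 CPM in the B7hi saline pair, against 85.4, 40.3 and 53.1 CPM in B7low HDM and 71.7 and 60.2 CPM in B7low saline. Cadm1, an adhesion molecule, held 1.25, 5.87 and 3.42 CPM in B7hi HDM and 0 and 1.04 CPM in B7hi with saline, against 106, 85.2 and 77.7 CPM in B7low HDM and 133 and 46.8 CPM in B7low saline. The average log2 fold changes were -4.02 ± 0.44 (adjusted p = 1.5e-05) for Ncam1 and -5.93 ± 0.48 (adjusted p = 7.7e-07) for Cadm1. With saline, both carriers were lower in the cells in which St8sia4 was called higher, a call not kept in each alternative. With HDM, Ncam1 (-3.82, adjusted p = 8.2e-04) and Cadm1 (-4.89, adjusted p = 9.9e-05) were lower as well. St8sia4 was not called there (-0.23, adjusted p = 0.827).

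Of 6 tested receptors that bind sialic acid, Cd33 (Siglec-3) and Pilra were lower in B7hi cells on average and none was called higher, where 6.08% of all tested genes were called lower. Cd33 held 26.3, 31.3 and 12.3 CPM in B7hi HDM and 15.1 and 19.3 CPM in B7hi with saline, against 100, 78.1 and 102 CPM in B7low HDM and 138 and 109 CPM in B7low saline (average -2.44 ± 0.27, adjusted p = 1.7e-05). Pilra passed on average alone (-1.39 ± 0.44, adjusted p = 0.0490), a call lost without any one library but B7low saline 1 and B7hi HDM 2 (0.064 to 0.23). Siglecg, a Siglec of B cells, was called lower in B7hi cells with HDM (-4.68 ± 1.10, adjusted p = 0.0314), where B cell markers were also lower, and this call was lost without any one HDM library (0.0643 to 0.198).

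**Figure D5:**
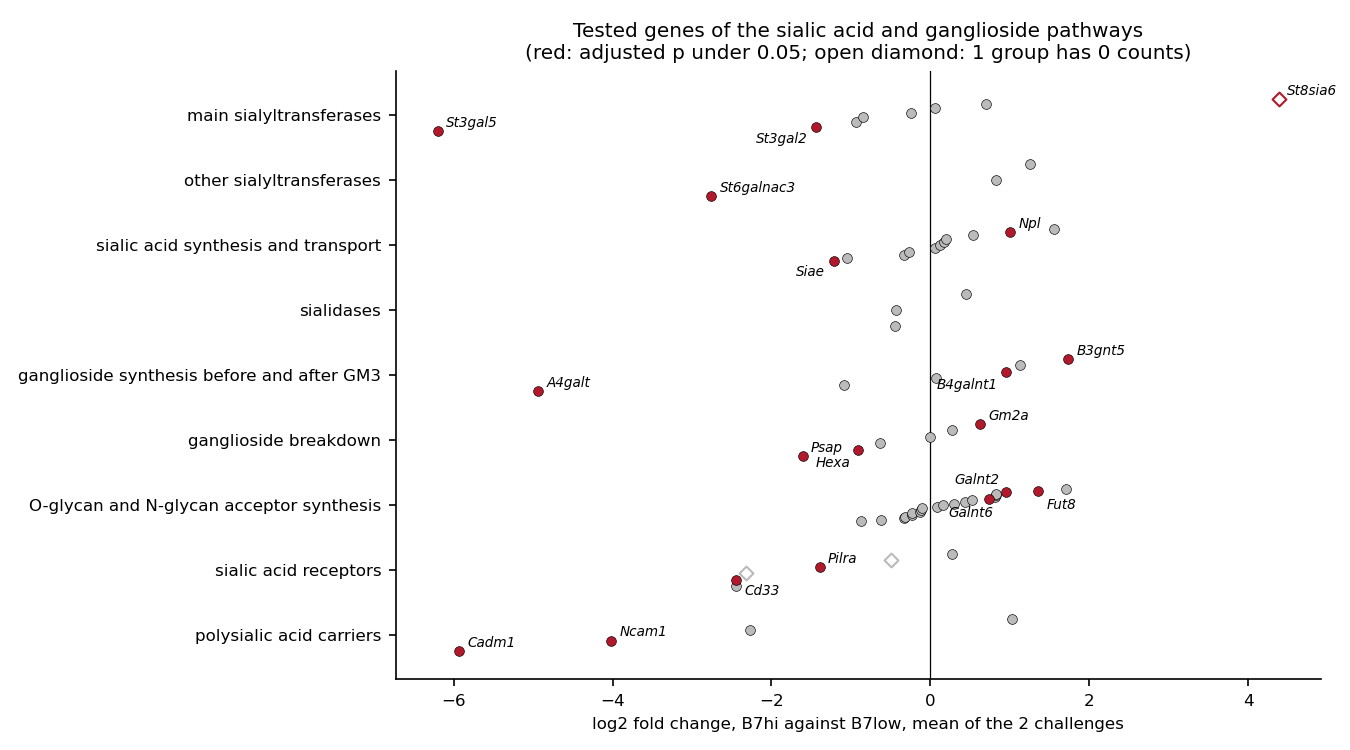
Log2 fold change of B7hi against B7low cells, averaged over both challenges (horizontal axis), for each tested gene of the sialic acid and ganglioside lists (rows). Red points have an adjusted p under 0.05 and carry their name, grey points do not pass, and open diamonds are genes with 0 counts in 1 group. St3gal5, Cadm1, A4galt and Ncam1 lie farthest to the left, at -6.20, -5.93, -4.93 and -4.02.

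Library totals ran from 525983 counts (B7hi HDM 2) to 1725818 counts (B7hi saline 2), and the ribosomal RNA precursor Rn45s took 19.7% to 28.9% of counts. Kcnq1ot1 stood at 12130 CPM in B7hi HDM 2 and 6956 CPM in B7low saline 2, against 806 to 2794 CPM in the other 8 libraries. When this pair of libraries was left out, St3gal5 was the 1 member called with saline. Basophil markers, led by Mcpt8, summed to 2433 to 3116 CPM in B7hi HDM, 1862 and 2378 CPM in B7hi saline, 1617 to 2263 CPM in B7low HDM and 1458 and 1911 CPM in B7low saline. Of 5 tested basophil markers, 2 were called higher and 2 lower in B7hi cells on average, where 5.8% of all tested genes were called higher and 6.08% lower. The part of basophil transcripts in the results was not tested. Of the eosinophil markers Ccr3 was detected in all 10 libraries, with 167 counts in all, while Ear1, Epx and Prg2 were at 0. Of the neutrophil markers Mpo led with 18 counts in all, and S100a8 was at 0.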

How the data were processed

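The data are RNA-seq libraries of sorted mast cells, made with SmartSeq2 and read paired-end at 25 nt, per the labels' protocols. The deposited table holds raw counts per gene symbol. Tools and build in the submitters' processing notes are mm10, DESeq2, Cufflinks 2.2.1 and TopHat2 2.0.10, without roles. How reads were counted, with which annotation and whether by strand, is not given in the sources used here. Group and replicate were read from each title.

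Of 22815 symbols, 10533 passed filterByExpr. Their counts were scaled by TMM and fitted in 1 robust quasi-likelihood model of all 10 libraries with a mean per group (edgeR 4.0.16 in R 4.3.3; common biological coefficient of variation 0.359). P-values are two-sided and Benjamini-Hochberg adjusted over the 10533 genes, with a threshold of 0.05. The SE was derived from the size of the log2 fold change and its F statistic. Folds against 0 counts use 3 counts over the group. Counting intervals are exact 95% intervals and cover counting error only, since amplified reads are not independent molecules. The fit was tested on simulated counts. Exon lengths for CPM per kb are from GENCODE M21.

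All members are named, with every pathway gene past the threshold in any contrast, or the smallest average p of a list without one. A few pathway genes were left out of the lists and are not reported here. Of marker lists, sums are given, and single genes where they lead the list or are at 0. The members and lists were chosen with earlier results of these data known. The comparisons share libraries. Alternatives were DESeq2 size factors, library size alone, DESeq2 1.42.0, limma-voom with library quality weights (limma 3.58.1), other count filters, fits of the compared groups alone, each library left out, the 2 libraries with high Kcnq1ot1 left out, and a replicate block. Leaving out a saline library loosens filterByExpr, which follows the smallest group, so these fits were also run on the genes of the full fit, an alternative chosen after seeing the data. Chi-square per degree of freedom between libraries of a group was 6.54 to 10.98, so none looked deposited again.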

Additional observations from a re-analysis of the deposited data

Results flagged for a closer look

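St6gal1 differed between the populations in opposite directions with each challenge. With HDM every B7hi library (39.4 to 56.8 CPM) was below every B7low library (61.8 to 88.1 CPM), and with saline every B7hi library (90.8 and 101 CPM) was above every B7low library (38.5 and 73.4 CPM). Ranges without overlap, in either direction, were common, at 20.5% of all tested genes with HDM and 51.9% with saline. The interaction was -1.46 ± 0.47 on the log2 scale and did not pass the edgeR test after adjustment (adjusted p = 0.421).

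St8sia6 differed between HDM and saline in opposite directions in the populations. In B7hi cells every HDM library (3.13 to 17.6 CPM) was below every saline library (24.9 and 32.9 CPM), and in B7low cells every HDM library (1.36 to 12.4 CPM) was above both saline libraries (0 counts). Between challenges, ranges did not overlap in either direction for 20.6% of all tested genes in B7hi and 23.9% in B7low cells. The interaction did not pass the edgeR test after adjustment (adjusted p = 0.389).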

How the results depend on the processing

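The calls of St3gal5 in the 3 comparisons of B7hi with B7low cells were kept in each alternative. With saline, 3 members were called, against 1 with weighted limma-voom and 1 without both B7low saline 2 and B7hi HDM 2, and 1 to 3 when each library was left out (1 without B7hi saline 2, B7low saline 1 or B7low saline 2, namely St3gal5). Those fits test all 10 members, since the count filter loosens. On the genes of the full fit, chosen after seeing the data, the count was 1 (St3gal5) without any one of the 4 saline libraries or without the pair. With HDM the count was 1, against 2 with no count filter and 1 to 2 with a library left out (St3gal1 was added without B7hi HDM 1). On average over challenges it was 3, against 5 with no count filter and 3 to 4 with a library left out. Without both B7low saline 2 and B7hi HDM 2 it was 2 (St3gal2 and St3gal5), and with weighted limma-voom St3gal1 was called in place of St8sia6. With no count filter, HDM against saline in B7low cells gave 1 call (St8sia4) in place of 0, and the interaction gave 2 (St8sia4, adjusted p = 0.0228, and St8sia6, 0.0353) in place of 0; the cause was not tested. The balance of St3gal5 and St8sia6 was -9.86 to -6.36 with prior counts of 0.5 and 5.

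Deviations of B7hi and B7low libraries with the same replicate number correlated at 0.0413 (both saline pairs), 0.0219, -0.112 and -0.0491 (HDM pairs), all below the 0.1 asked of a pairing. With 2 saline libraries a group the deviations mirror each other, so both saline pairs give a single value. HDM pairs with different numbers ran from -0.124 to 0.199. The labels do not say whether numbers mark shared mice, and this check does not settle it. With the replicate block the members called were 3 with saline, 1 with HDM and 4 on average (St3gal1 added, adjusted p = 0.0197), and 0 in the other comparisons. The balance of St3gal5 and St8sia6 was -7.34 under the replicate block, with an exact sign-flip p of 0.0625, the smallest that 5 pairs allow.

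Direction reversed in 49 single-gene values over both sets of genes, each in a comparison in which that member had not been called. The St3gal2 interaction was -0.23 with library size alone, -0.0508 with no count filter and -0.171 without both libraries of high Kcnq1ot1. The St3gal4 interaction was -0.124 with library size alone and -0.239 without both libraries, where St3gal4 with saline was 0.116, St6gal1 on average -0.233 and St6gal1 for HDM in B7low cells -0.0229. On the genes of the full fit and without both libraries, the St3gal2 and St3gal4 interactions were -0.162 and -0.23, St3gal4 was 0.13 with saline and 0.0146 on average, and St6gal1 was -0.217 on average. With a library left out, on either set of genes, the interaction ran from -0.864 to 0.464 for St3gal1, -0.197 to 0.421 for St3gal2 and -0.311 to 0.733 for St3gal4. For HDM in B7hi cells, the range was -0.958 to 0.368 for St3gal3 and -0.166 to 0.762 for St3gal4. For HDM in B7low cells it was -0.291 to 0.522 for St3gal4 and -0.0223 to 0.947 for St6gal1. For B7hi against B7low it was -0.902 to 0.147 (St3gal4, saline), -0.433 to 0.136 (St3gal4, HDM), -0.543 to 0.159 (St8sia4, HDM) and -0.146 to 0.333 (St6gal1, average). The causes were not tested. A fit that leaves 1 library in a group assumes that it varies like the other groups. Depth limits the low members: 3 counts equal 1.57 to 5.87 CPM.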
